A study of Homo sapiens with 20 samples.

Results

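The genes described here are NFE2L2, which encodes the transcription factor NRF2, its inhibitor KEAP1, and 8 genes that NRF2 is known to switch on (GCLC, GCLM, TXNRD1, SRXN1, GPX2, NQO1, HMOX1 and OSGIN1). They were taken by name from the 36346 gene names in the files, and all 10 were listed once in each of the 20 libraries and passed the filter on low values in both cell lines. RNA-seq was done on a pair of established colorectal cancer lines, HT29 and SW480. The cells had received a scrambled control siRNA (SCR) or 1 of 2 siRNAs that target POLR1D (siPOLR1D-2 and siPOLR1D-3) 72 h earlier. The POLR1D protein is part of the polymerases that transcribe ribosomal and transfer RNA genes (I and III). HT29 cells had 4 SCR libraries and 2 for each siRNA, and were kept in DMEM medium. SW480 cells had 6 SCR libraries and 3 for each siRNA, and were kept in RPMI medium. Both arms were transfected transiently, and the labels do not say whether libraries of a group came from separate cultures, so p values measure the spread between libraries, which may be technical.

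NRF2 is held at low levels in unstressed cells by KEAP1, which binds it and hands it to a ubiquitin ligase for degradation. When electrophiles or oxidants modify KEAP1, NRF2 accumulates, pairs with small MAF proteins and binds antioxidant response elements near its target genes. The targets make glutathione, recycle thioredoxin and peroxiredoxin, detoxify quinones and break down haem. NRF2 is regulated mostly at the protein level, so its mRNA and its activity are different quantities, and only mRNA was measured here.

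Promoters are shown first because the antioxidant response element is the site through which NRF2 is known to act on these genes. The core letters TGACNNNGC were searched on both strands in the 250 bases before each start site, in sequences from RefSeq on GRCh38.p14. They were present for 4 of the 9 members that have such a sequence (GCLM, TXNRD1, GPX2 and KEAP1) and for 13.2% of the 27305 genes searched. Capitals mark the core as read on the strand of the gene, read either as written or as its reverse complement.
GCLM, chr1:93909446-93909474, minus strand: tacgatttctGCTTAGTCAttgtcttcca
TXNRD1, first of 2 start sites, chr12:104215670-104215698, plus strand: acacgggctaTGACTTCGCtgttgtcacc
TXNRD1, other start site, chr12:104286920-104286948, plus strand: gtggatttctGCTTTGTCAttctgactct
GPX2, chr14:64942849-64942877, minus strand: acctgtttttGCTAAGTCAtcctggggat
KEAP1, chr19:10502807-10502835, minus strand: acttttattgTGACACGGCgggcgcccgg
KEAP1, chr19:10502784-10502812, minus strand: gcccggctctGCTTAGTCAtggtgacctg
The match in GCLM lies between 34 and 26 bases before the start site and that in GPX2 between 122 and 114 bases before it. KEAP1, the inhibitor, holds the core at 2 places. Of the 36 other NRF2 pathway genes with a promoter sequence, 12 held the core. A match is only a run of letters, and elements farther from the start site were not searched.

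The deposited values are normalized read counts from DESeq2, taken here as normalized within each cell line, and they were compared with limma on log2(value + 1), with p values adjusted by Benjamini-Hochberg across the genes of each fit and a threshold of 0.05. All fold changes below are on that scale, which understates the change of low genes. POLR1D was below every SCR library in all 4 silenced HT29 libraries (2550 to 3492 against 4433 to 6036) and in all 6 silenced SW480 libraries (843 to 1336 against 1829 to 2599). Its log2 fold change was -0.72 (adjusted p = 0.355, SE 0.14) in HT29 and -1.04 (adjusted p = 9.9e-04, SE 0.13) in SW480. Libraries held between 13.5 M and 27.6 M estimated reads. Colorectal epithelial markers summed, per 1000000 counts of the library, to between 5853 and 13545, whereas fibroblast markers stayed at or below 41.3, immune markers at or below 4.35 and endothelial markers at or below 7.08. A lower value in a bulk library can reflect fewer cells that express a gene or less RNA per cell, which cannot be told apart.

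Some libraries stood apart from others of their group. On the first principal component of HT29 (43.3% of the variance), SCR replicates 1 and 2 lay at 88.3 and 18.7, and the other 6 libraries between -21.1 and -15.1. These 2 libraries also had the fewest estimated reads of the HT29 SCR libraries, 14.2 M and 16.1 M. In HT29, siPOLR1D-3 replicate 2 had fewer still, 13.5 M, and lay at -18.75. In SW480, SCR replicates 1 to 3 and siPOLR1D-2 replicates 1 and 2 lay on the positive side of the first component (42.0% of the variance), and the other 7 libraries on the negative side. All 3 siPOLR1D-3 libraries were on the negative side. The labels name neither split, and its part in the results was not tested beyond the fits given below.

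In SCR cells, NQO1 and TXNRD1 were the most abundant members in both lines and OSGIN1 the least abundant. Expressed per 1000000 counts of the library and per kilobase of transcript, the median level of NQO1 was 534 in HT29 and 149 in SW480, and that of TXNRD1 was 336 and 164.5. NQO1 encodes a quinone reductase and TXNRD1 the cytosolic thioredoxin reductase. In SW480, the ranges of NQO1 (120.4 to 266) and TXNRD1 (146 to 219) overlapped, so their order there lay within the spread. NFE2L2 itself had a median of 102 in HT29 and 107.5 in SW480, and KEAP1 of 16.99 and 19.6. OSGIN1, an oxidative stress-induced growth inhibitor, had a median of 4.83 in HT29 and 2.17 in SW480, on the same scale. In HT29 the order was NQO1, TXNRD1, GPX2, GCLC, NFE2L2, KEAP1, GCLM, HMOX1, SRXN1 and OSGIN1, and the ranges of neighbours overlapped except between NQO1 and TXNRD1, TXNRD1 and GPX2, and NFE2L2 and KEAP1. In SW480 it was TXNRD1, NQO1, NFE2L2, GPX2, GCLC, KEAP1, SRXN1, GCLM, HMOX1 and OSGIN1, and neighbours were separate between NFE2L2 and GPX2 and from GCLC down to GCLM. Transcript lengths were medians over coding transcripts in GENCODE 29.

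**Figure D1:**
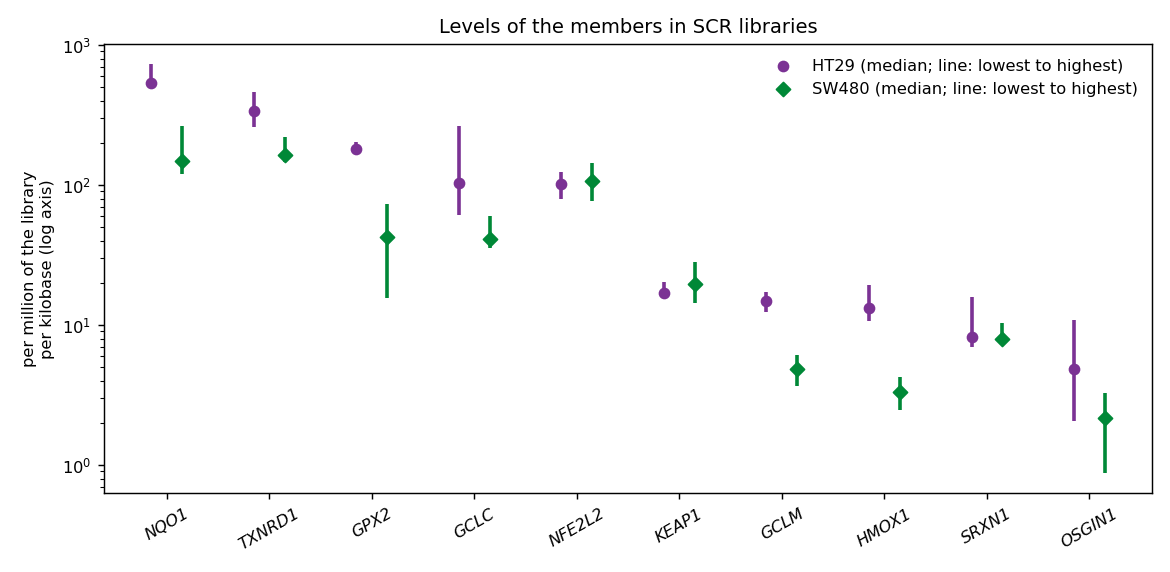
Levels of the 10 members in SCR libraries, per 1000000 counts of the library and per kilobase of transcript on a log axis, with the median as a point and a line from the lowest to the highest library (4 HT29, 6 SW480 libraries). NFE2L2, KEAP1 and SRXN1 lie at like levels in both lines, whereas the HT29 range lies above the SW480 range for GCLC, GCLM, TXNRD1, GPX2, NQO1 and HMOX1.

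Between the lines, the transcription factor and its inhibitor were at like levels, and most targets were higher in HT29. For GCLC, GCLM, TXNRD1, GPX2, NQO1 and HMOX1, every HT29 SCR library was above every SW480 SCR library, per 1000000 counts of the library. That held for 15.5% of all 15141 genes compared, and 27.9% were lower in every HT29 library, a direction that no member showed. The HT29 median was 4.23 times the SW480 median for GPX2 (179 against 42.4 on that scale), 3.96 times for HMOX1, 3.58 times for NQO1, 3.10 times for GCLM, 2.53 times for GCLC and 2.05 times for TXNRD1. For NFE2L2, KEAP1 and SRXN1 the ratio was 0.951, 0.869 and 1.04. The OSGIN1 ranges overlapped, at a ratio of 2.23. The HT29 medians include SCR replicates 1 and 2, which stood apart. GCLC was at 742 and 393 in these and at 171.1 and 190.7 in replicates 3 and 4, where the highest SW480 value was 169.8. TXNRD1 was at 895 and 784.5 against 516 and 500, and OSGIN1 at 15.1 and 10.4 against 2.96 and 2.84. GPX2 was not higher in replicates 1 and 2 (171.1 and 177 against 182 and 201). The comparisons between the lines are descriptions without a test, since the lines were normalized separately and grown in different media.

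The response to POLR1D silencing was examined in SW480 first. TXNRD1, NQO1 and NFE2L2 fell with both siRNAs pooled, and the other 7 members did not pass the threshold. Thus 3 of 10 members were lower and 0 higher, where 4.29% of the 15019 genes tested were lower and 2.44% higher. Of the 1011 genes called, 36.3% were higher, and this share became 55.2% after scaling all libraries to the same total and 65.2% after scaling to the same upper quartile. The median log2 fold change of the members was -0.42, beside 0.01 over all genes.

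TXNRD1 (chr12:104215779-104350305, plus strand, GRCh38) keeps thioredoxin reduced. Its normalized read count in SW480 was between 5695 and 9548 in the 6 SCR libraries, with a median of 7023. It was 5053, 5141 and 5386 with siPOLR1D-2, and 3993, 3887 and 3991 with siPOLR1D-3. The SCR range lay above all 6 silenced libraries, which was the case for 2.88% of genes tested (1.68% were above every SCR library). The log2 fold change was -0.65 (SE 0.13, 95% interval -0.93 to -0.37, adjusted p = 0.0126; exact permutation test, 2-sided, p = 0.00216, the smallest that 6 against 6 allow). The call held with each of the 12 libraries left out in turn (adjusted p between 0.0144 and 0.0329). It did not hold against SCR replicates 4 to 6 alone (log2 fold change -0.49, adjusted p = 0.0624) or among the 5 libraries on the positive side of the first component (-0.64, adjusted p = 0.337), and it held among the other 7 (-0.57, adjusted p = 0.0187). On the positive side 0 of 15110 genes passed, and its silenced libraries are all siPOLR1D-2. All siPOLR1D-3 libraries are among the other 7, so the fits by side differ in siRNA, for NQO1 and NFE2L2 below as well.

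NQO1 (chr16:69706996-69726951, minus strand) had SW480 read counts between 2569 and 6074 in SCR, with a median of 3282. The counts were 2722, 2752 and 1199 with siPOLR1D-2, and 1806, 1676 and 1710 with siPOLR1D-3. Hence 4 of 6 silenced libraries were below every SCR library, and siPOLR1D-2 replicates 1 and 2 lay within the SCR range. The estimated log2 change was -0.90 (SE 0.24, 95% interval -1.41 to -0.39, adjusted p = 0.0393; exact permutation test p = 0.0130). The call held in only 4 of 12 fits with a library left out, those without SCR replicates 5 or 6 or siPOLR1D-2 replicates 1 or 2 (adjusted p between 0.0279 and 0.0835 over all 12). Against SCR replicates 4 to 6 alone the log2 fold change was -0.52 (adjusted p = 0.224). Within the sides of the first component it was -0.74 (adjusted p = 0.357) and -0.79 (adjusted p = 0.00718).

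NFE2L2 (chr2:177227595-177392697, minus strand) encodes NRF2 itself. Its SW480 read count was between 1630 and 3176 in SCR, with a median of 2204. It was 1653, 1755 and 1126 with siPOLR1D-2, and 1343, 1431 and 1334 with siPOLR1D-3. All 3 siPOLR1D-3 libraries and siPOLR1D-2 replicate 3 were below every SCR library. Limma gave a log2 change of -0.65 (SE 0.18, 95% interval -1.03 to -0.26, adjusted p = 0.0462; exact permutation test p = 0.0108). The call held in 4 of 12 fits with a library left out, those without SCR replicates 1, 4 or 5 or siPOLR1D-2 replicate 2, and reached adjusted p = 0.1003 without SCR replicate 3. After scaling to the same total the adjusted p was 0.0506, and against SCR replicates 4 to 6 alone it was 0.145. Within the sides of the first component the log2 fold change was -0.57 (adjusted p = 0.541) and -0.60 (adjusted p = 0.0349).

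**Figure D2:**
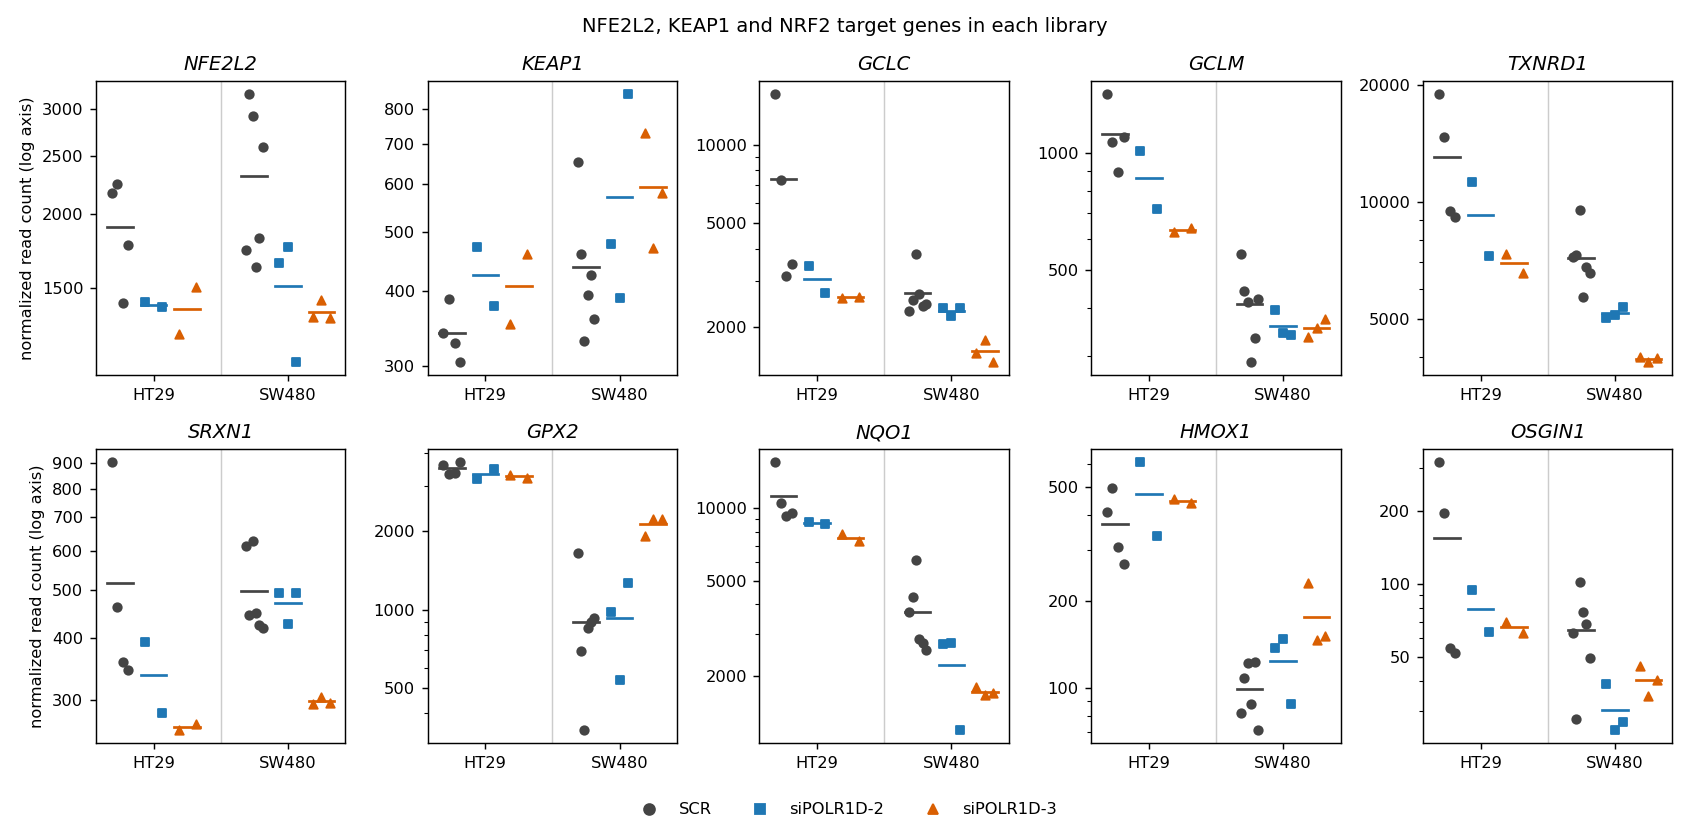
Normalized read counts of the 10 members in each library, on log axes, in HT29 (left of each panel) and SW480 (right), with SCR as circles, siPOLR1D-2 as squares, siPOLR1D-3 as triangles and the group mean as a bar. TXNRD1 in SW480 and NQO1 in HT29 are the panels in which the silenced libraries of a line lie apart from, and below, the SCR libraries, and in HT29 SCR the highest GCLC, SRXN1 and OSGIN1 values are those of replicate 1.

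The remaining members did not pass in the pooled comparison of SW480. For the glutathione synthesis enzyme, the catalytic subunit GCLC had a log2 fold change of -0.46 (adjusted p = 0.0889, SE 0.15; exact permutation test p = 0.0108) and the modifier subunit GCLM one of -0.17 (adjusted p = 0.530, SE 0.14). SRXN1, which repairs overoxidized peroxiredoxins, had -0.39 (adjusted p = 0.211, SE 0.18), and OSGIN1 -0.79 (adjusted p = 0.127, SE 0.29; exact permutation test p = 0.0260). KEAP1 had 0.40 (adjusted p = 0.269, SE 0.21). HMOX1, the inducible haem oxygenase, had 0.57 (adjusted p = 0.144, SE 0.22; exact permutation test p = 0.0368). GPX2, the gastrointestinal glutathione peroxidase, had 0.75 (adjusted p = 0.266, SE 0.39).

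HMOX1 and KEAP1 were the members with positive values in both lines. HMOX1 (chr22:35380361-35394214, plus strand) had SW480 read counts between 71.4 and 122.7 in SCR, with a median of 98.2. It had 137, 147 and 87.5 with siPOLR1D-2, and 232, 147 and 151 with siPOLR1D-3. Thus 5 of 6 silenced libraries were above every SCR library. In HT29, HMOX1 read counts were 407, 495, 308 and 270.3 in SCR, 608 and 336 with siPOLR1D-2, and 453 and 439 with siPOLR1D-3, so the groups overlapped. The KEAP1 (chr19:10486120-10503741, minus strand) read counts in SW480 were between 331 and 654 in SCR and between 389 and 845 in silenced libraries. Its HT29 read counts were 341, 388, 328 and 305 in SCR, and 472, 378, 353 and 461 in silenced libraries.

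Each siRNA was then compared with all SCR libraries of SW480. With siPOLR1D-3, TXNRD1, GCLC and SRXN1 fell and GPX2 rose, that is, 3 of 10 members were lower and 1 higher, where 4.45% of all genes were lower and 2.15% higher. On the log2 scale the change was -0.85 for TXNRD1 (adjusted p = 0.00449, SE 0.13), -0.72 for GCLC (adjusted p = 0.0142, SE 0.15), -0.71 for SRXN1 (adjusted p = 0.0203, SE 0.16) and 1.39 for GPX2 (adjusted p = 0.0478, SE 0.38). NQO1 had -1.03 (adjusted p = 0.0551, SE 0.29), NFE2L2 -0.70 (adjusted p = 0.0762, SE 0.22) and HMOX1 0.83 (adjusted p = 0.0680, SE 0.25), which did not pass.

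With siPOLR1D-2 no member passed in limma, and 4 were at an unadjusted p under 0.05. Of all genes, 24.99% were at an unadjusted p under 0.05. Past the adjusted threshold, 5% of all genes were lower and 3.16% higher. TXNRD1 had a log2 fold change of -0.45 (adjusted p = 0.0513, SE 0.13), OSGIN1 of -0.99 (adjusted p = 0.103, SE 0.36), NQO1 of -0.76 (adjusted p = 0.128, SE 0.29) and NFE2L2 of -0.59 (adjusted p = 0.122, SE 0.22). POLR1D fell by 0.99 with siPOLR1D-2 and by 1.09 with siPOLR1D-3 on the log2 scale.

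GPX2 (chr14:64939152-64942905, minus strand) was the member with the largest estimated difference between the siRNAs in SW480. Its read counts were 1657, 694, 346, 849.5, 897 and 934 in SCR replicates 1 to 6, and 984, 537 and 1272 with siPOLR1D-2. With siPOLR1D-3 they were 1914, 2240 and 2236, above every SCR library. Directly compared, siPOLR1D-3 exceeded siPOLR1D-2 by 1.28 (SE 0.44, 95% interval 0.33 to 2.23, adjusted p = 0.120) on the log2 scale. The call of GPX2 with siPOLR1D-3 held in 4 of 12 fits with a library left out, those without SCR replicates 1 or 3 or siPOLR1D-2 replicates 2 or 3. It had an adjusted p of 0.0636 against SCR replicates 1 to 3 alone and of 0.0178 against replicates 4 to 6 alone.

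GCLC and SRXN1 were low with siPOLR1D-3 and near SCR with siPOLR1D-2. The GCLC (chr6:53497341-53616970, minus strand) read counts in SW480 were between 2293 and 3824 in SCR, with a median of 2493. They were 2368, 2196 and 2368 with siPOLR1D-2 and 1586, 1787 and 1466 with siPOLR1D-3. SRXN1 (chr20:646615-653370, minus strand) had between 420 and 627 in SCR, with a median of 448. It had 492, 427 and 492 with siPOLR1D-2 and 294, 305 and 296 with siPOLR1D-3. For both genes, the siPOLR1D-3 libraries were below every SCR library, while siPOLR1D-2 libraries overlapped with SCR. The calls with siPOLR1D-3 were lost without siPOLR1D-3 replicates 1 or 3 for GCLC (adjusted p = 0.0827 and 0.0904) and without any of the 3 for SRXN1 (adjusted p between 0.0779 and 0.105). After scaling to the same upper quartile, GCLC had an adjusted p of 0.0538 with siPOLR1D-3.

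The difference between siPOLR1D-3 and siPOLR1D-2 passed for no member in SW480, where 3.32% of all genes passed. On the log2 scale it was -0.65 for SRXN1 (SE 0.18, 95% interval -1.04 to -0.26, adjusted p = 0.0643), -0.52 for GCLC (SE 0.17, 95% interval -0.89 to -0.16, adjusted p = 0.104) and -0.39 for TXNRD1 (SE 0.15, 95% interval -0.72 to -0.07, adjusted p = 0.157). These 3 members and GPX2 were at an unadjusted p under 0.05, as were 21.79% of all genes. All siPOLR1D-3 libraries lie on the negative side of the first component, where only 1 siPOLR1D-2 library lies, and the part of this split in the difference was not tested.

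**Figure D3:**
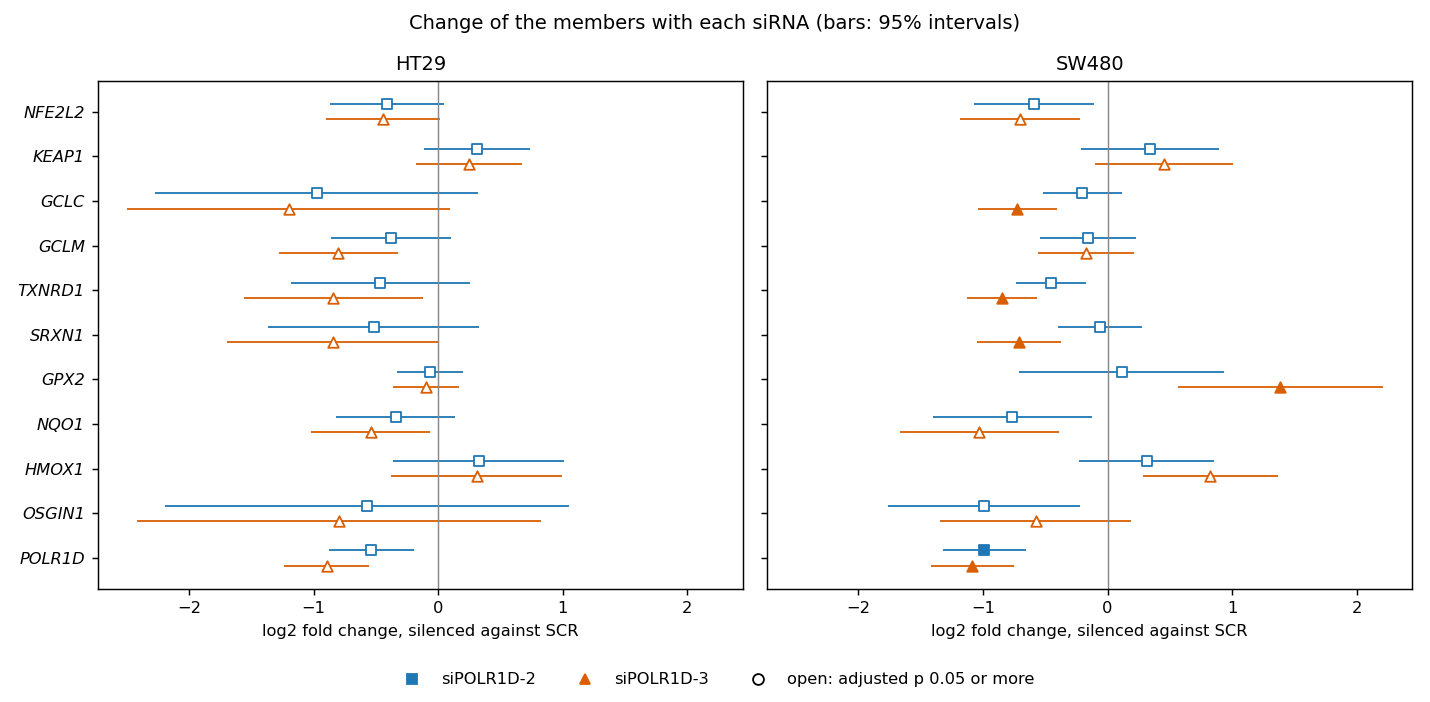
Log2 fold change of the 10 members and POLR1D with each siRNA against SCR in HT29 and SW480, with 95% intervals, filled where the adjusted p was under 0.05. In SW480, siPOLR1D-3 values are filled for TXNRD1, GCLC, SRXN1 and GPX2, and no member is filled in HT29.

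In HT29, no member passed the threshold, nor did any of the 13274 genes tested (0%). The smallest adjusted p was 0.408 among the members and 0.316 among all genes. At an unadjusted p under 0.05, 6 members were lower (GCLM, NFE2L2, NQO1, TXNRD1, GCLC and SRXN1) and 0 higher, compared with 6.05% of all genes lower and 4.66% higher. The median log2 fold change of the members was -0.52, beside 0.00019 over all genes. With siPOLR1D-2 and siPOLR1D-3 taken singly, 0 and 3 members were at an unadjusted p under 0.05, and 4.36% and 7.77% of all genes.

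NQO1 was the member whose HT29 groups did not overlap. Its read counts were 15552, 10562, 9304 and 9538 in SCR replicates 1 to 4, 8750 and 8583 with siPOLR1D-2, and 7820 and 7293 with siPOLR1D-3. Of the HT29 genes tested, 4.17% had their silenced libraries all below the SCR range and 2.72% all above it. The log2 fold change of NQO1 was -0.44 (SE 0.17, 95% interval -0.81 to -0.07, adjusted p = 0.430; exact permutation test p = 0.0286, the smallest that 4 against 4 allow). Without SCR replicate 1 it was -0.27, and with SCR replicates 3 and 4 only it was -0.22 (adjusted p = 0.429).

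For the glutathione synthesis enzyme, the HT29 control libraries varied widely. GCLC read counts were 15657, 7357, 3146 and 3497 in SCR, 3423 and 2693 with siPOLR1D-2, and 2591 and 2601 with siPOLR1D-3. SCR replicate 1 was 4.98 times SCR replicate 3. The log2 fold change of GCLC was -1.09 (adjusted p = 0.441, SE 0.44), and it was -0.24 (adjusted p = 0.503) with SCR replicates 3 and 4 as the only controls. GCLM (chr1:93885205-93909456, minus strand) had 1418, 1072, 893 and 1102 in SCR, 1013 and 717 with siPOLR1D-2, and 626 and 644 with siPOLR1D-3. Its log2 fold change was -0.59 (adjusted p = 0.408, SE 0.19), and -0.43 (adjusted p = 0.439) with the same 2 controls. In SW480, GCLM read counts were between 290.1 and 550.1 in SCR and between 336 and 394 in silenced libraries, inside the SCR range.

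TXNRD1 and SRXN1 followed GCLC across the HT29 libraries. TXNRD1 read counts were 18883, 14693, 9484 and 9170 in SCR, 11227 and 7267 with siPOLR1D-2, and 7377 and 6557 with siPOLR1D-3. SRXN1 had 904, 462, 357 and 345 in SCR, 392 and 282 with siPOLR1D-2, and 261 and 269 with siPOLR1D-3. For both genes SCR replicate 1 was the highest library and siPOLR1D-2 replicate 1 exceeded SCR replicates 3 and 4. The log2 estimate was -0.65 (adjusted p = 0.433, SE 0.25) for TXNRD1 and -0.68 (adjusted p = 0.454, SE 0.29) for SRXN1, and -0.23 and -0.24 with SCR replicates 3 and 4 only (adjusted p = 0.654 and 0.635).

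OSGIN1 (chr16:83948282-83966332, plus strand) had HT29 read counts of 318, 196, 54.5 and 52.1 in SCR, 94.8 and 63.6 with siPOLR1D-2, and 69.9 and 62.5 with siPOLR1D-3. All 4 silenced libraries lay between SCR replicates 1 and 2 above and replicates 3 and 4 below. Its log2 fold change was -0.68 (adjusted p = 0.640, SE 0.55) with all SCR libraries and 0.42 (adjusted p = 0.541) with replicates 3 and 4 only. In SW480, OSGIN1 read counts were 63.0, 27.6, 102.4, 76.7, 68.6 and 49.4 in SCR, 38.5, 25.02 and 27.1 with siPOLR1D-2, and 45.9, 34.4 and 40.2 with siPOLR1D-3, so that SCR replicate 2 alone among the controls lay within the silenced range.

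NFE2L2 in HT29 had read counts of 2170, 2248, 1418 and 1775 in SCR, and 1421, 1391, 1257 and 1506 in the silenced libraries. The log2 fold change was -0.43 (adjusted p = 0.427, SE 0.15), and -0.19 (adjusted p = 0.583) with SCR replicates 3 and 4 only. GPX2 in HT29 hardly varied, with read counts between 3319 and 3683 in SCR and between 3186 and 3475 in silenced libraries. Its log2 fold change was -0.08 (SE 0.09, 95% interval -0.28 to 0.12, adjusted p = 0.723), and its sign turned after rescaling the libraries.

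**Figure D4:**
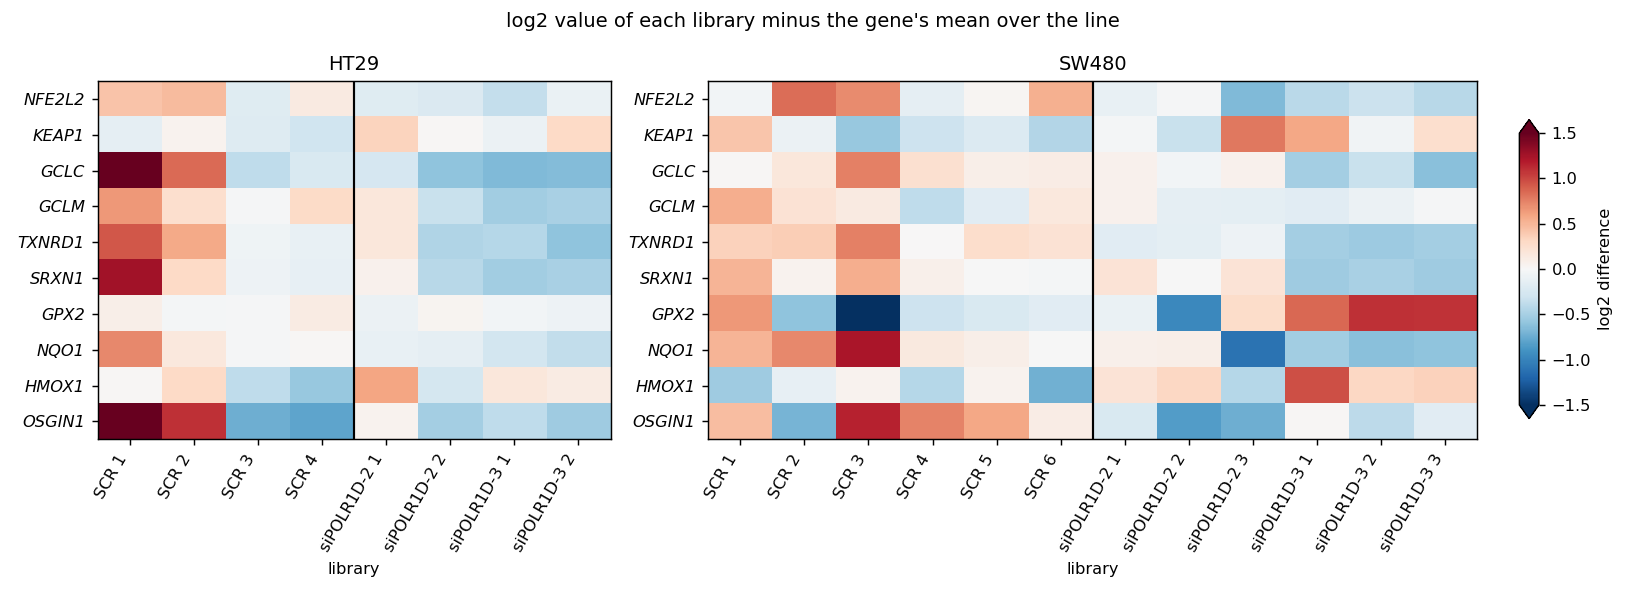
Log2 value of each member in each library minus the mean of that gene over the line, in HT29 (8 libraries) and SW480 (12 libraries), with red for higher and blue for lower values and a line between SCR and silenced libraries. HT29 SCR replicates 1 and 2 carry the highest GCLC, TXNRD1, SRXN1, NQO1 and OSGIN1 values, and in SW480 GPX2 is high in the siPOLR1D-3 libraries, where GCLC, TXNRD1 and SRXN1 are low.

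Across the libraries of a line, the members varied together to a different degree. Over the 8 HT29 libraries the median Pearson r of the 45 pairs of members was 0.60, and it was 0.60 within the SCR and silenced arms. Both include SCR replicates 1 and 2, which stood apart. Over the 12 SW480 libraries the median r was 0.17, and 0.08 within the arms. The closest pairs in SW480 were GCLC with TXNRD1 (r = 0.887, and 0.811 within the arms) and GCLC with SRXN1 (r = 0.853 and 0.781), and GPX2 ran opposite to GCLC (r = -0.853 and -0.820). These correlations share libraries and their depth and are given as a description.

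Genes whose SW480 values ran most like the 3 called members were sought over 15018 genes and 12 libraries, also as a description. For TXNRD1 they were MAFF (r = 0.956), S100A16 (r = 0.956) and GTPBP8 (r = 0.953). MAFF is a small MAF protein, the kind of partner with which NRF2 binds DNA. For NQO1 they were ANXA5 (r = 0.985), PSMG2 (r = 0.979) and CAST (r = 0.974). For NFE2L2 they were ZBTB38 (r = 0.969), TNFRSF1A (r = 0.969) and IRF1 (r = 0.963). Each r was taken over SCR and silenced libraries together, so it includes any change that the genes share on silencing. All the genes named here had negative log2 fold changes themselves in SW480, from -1.57 for MAFF to -0.43 for PSMG2. Being picked for likeness to members that fell, they do not add a separate result by these signs. GTPBP8, PSMG2 and TNFRSF1A did not pass (adjusted p = 0.0778, 0.0805 and 0.0874 from limma).

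A list of 50 other NRF2 pathway genes was read in the same fits. In SW480, 48 could be tested, of which 5 fell and 0 rose, where 4.29% of all genes tested were lower and 2.44% higher. Their median log2 fold change was -0.17, beside 0.01 over all genes. The 5 were SLC48A1, MAFF, PIR, BACH1 and SLC7A11. In HT29, 49 could be tested and none passed, with a median of -0.22, beside 0.00019 over all genes. At an unadjusted p under 0.05, 6 were lower and 0 higher, where 6.05% of all genes were lower and 4.66% higher. By role, values were below 0, counted in each line by itself, for 6 of 6 NADPH-producing enzymes, of which 0 passed, for 5 of 8 genes of glutathione synthesis and use, for 6 of 10 sensors, partners and relatives of NRF2 and for 2 of 4 genes of conjugate export. In HT29 and in SW480, they were below 0 for 7 of 7 and 6 of 7 iron and haem genes, for 10 of 11 and 8 of 10 detoxifying enzymes, and for 1 of 3 and 2 of 3 genes of thioredoxin and peroxiredoxins. These counts of signs include genes that did not pass. The share of all genes below 0 was not counted, so they have no background beyond the medians above. The HT29 values include SCR replicates 1 and 2, which stood apart.

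SLC7A11, the cystine transporter that supplies glutathione synthesis, had the largest fold change of these 5. Its SW480 read counts were between 461 and 2743 in SCR, with a median of 1666, and between 248 and 978 in silenced libraries, with a median of 452. The log2 fold change was -1.69 (adjusted p = 0.0306, SE 0.42). All SCR libraries other than replicate 1 were above every silenced library. In HT29 it had 3946, 5223, 1338 and 2869 in SCR and 1463, 979.8, 836 and 947 in silenced libraries, with a log2 fold change of -1.53 (adjusted p = 0.355, SE 0.37).

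BACH1 and MAFF act on the same DNA element as NRF2, BACH1 as a repressor. BACH1 read counts in SW480 were between 953 and 1575 in SCR and between 739.8 and 1006 in silenced libraries, with a log2 fold change of -0.51 (adjusted p = 0.0286, SE 0.12). In HT29, where it did not pass, they were 904, 912, 790.5 and 896 in SCR and 748, 582, 672 and 622 in silenced libraries, without overlap (log2 fold change -0.42, adjusted p = 0.374). MAFF had SW480 read counts between 33.2 and 84.8 in SCR and between 8.35 and 31.5 in silenced libraries, without overlap, and a log2 fold change of -1.57 (adjusted p = 0.0190, SE 0.35). In HT29 the MAFF value was -0.78 (adjusted p = 0.554).

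SLC48A1, a haem transporter, fell by 0.92 on the log2 scale in SW480 (adjusted p = 0.0128, SE 0.18), from between 236 and 409 in SCR to between 119.9 and 191 in silenced libraries, which did not overlap. In HT29 its value was -0.11 (adjusted p = 0.835). PIR, an iron-binding nuclear protein, fell by 0.67 in SW480 (adjusted p = 0.0261, SE 0.16), from between 874 and 1485 to between 503 and 930.2, and had -0.41 in HT29 (adjusted p = 0.392). PGD, an NADPH-producing enzyme of the pentose phosphate pathway, had one of the 3 smallest p values of the pathway list in HT29 and did not pass there (log2 fold change -0.51, adjusted p = 0.374). Its HT29 read counts were between 4202 and 6486 in SCR and between 3137 and 4009 in silenced libraries. In SW480, PGD had a log2 fold change of -0.08 (adjusted p = 0.753).

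**Figure D5:**
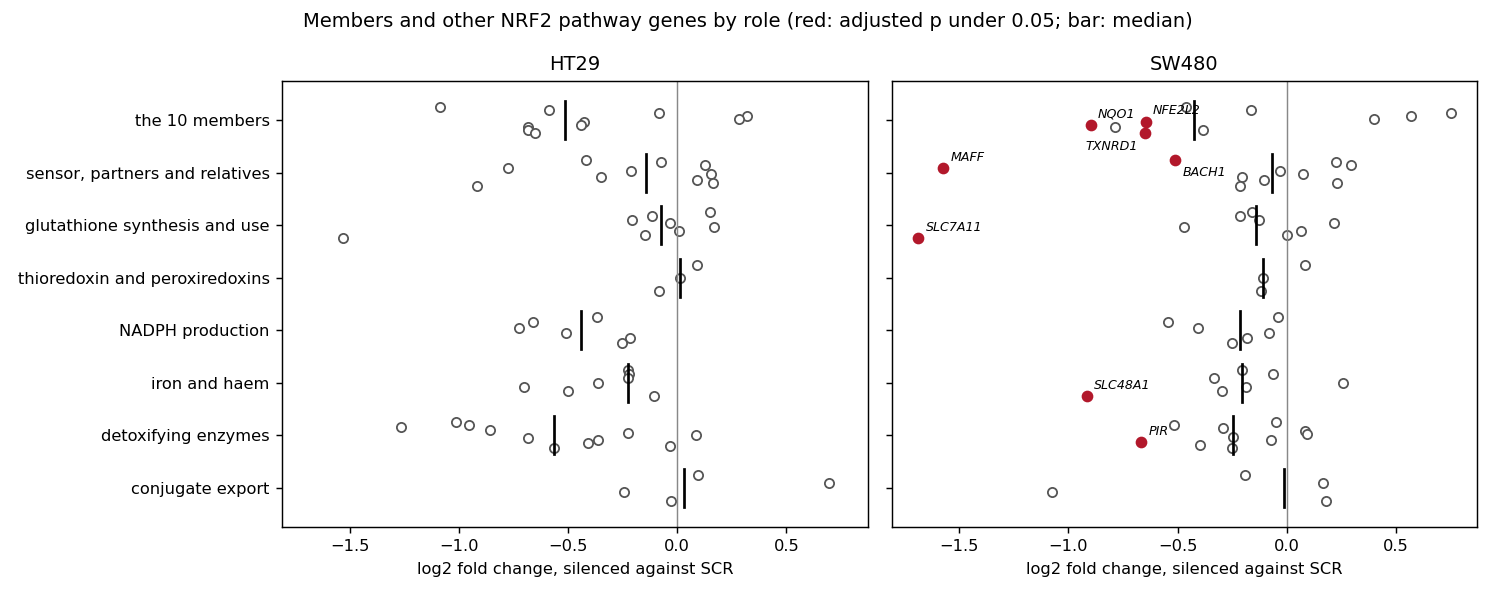
Log2 fold change of the 10 members and of the other NRF2 pathway genes, grouped by role, in HT29 and SW480, with red points for an adjusted p under 0.05 and a bar at the median. The 8 red points lie in SW480, all below 0.

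Whether the lines responded differently was tested as an interaction over all 20 libraries. No member passed (adjusted p between 0.666 and 0.998), and 0.037% of 16203 genes did. The difference, SW480 minus HT29, was 0.00 for TXNRD1 (95% interval -0.57 to 0.58) and 0.83 for GPX2 (95% interval -0.21 to 1.88). For NQO1 it was -0.46 (95% interval -1.16 to 0.24), and for GCLC 0.63 (95% interval -0.28 to 1.53). NFE2L2, GCLC, GCLM, TXNRD1, SRXN1, NQO1 and OSGIN1 had negative fold changes in both lines. Hence a call in SW480 and not in HT29 does not show that the lines differ, and no difference could be called. Between siPOLR1D-3 and siPOLR1D-2 in HT29, limma called 0% of genes, with 207 genes and 0 members at an unadjusted p under 0.05.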

How the data were processed

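RNA of 20 libraries was captured for the coding transcriptome and sequenced. Per the labels and the study's methods, the authors quantified reads with kallisto 0.44.0 and deposited a signal value per gene, a read count normalized with DESeq2 1.24.0 (hg38; FastQC 0.11.5). The annotation is not given in the sources used here. Between 26.6% and 53.1% of low values were whole multiples of 1 read (tolerance 0.01), so no count test was used, and no interval from reads was derived.

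Values of rows with the same gene name were added. limma 3.58.1 (R 4.3.3, mean-variance trend) was fitted to log2(value + 1) of genes that reached 10 in 4 or more HT29 libraries or 6 or more SW480 libraries. Each line was fitted alone, per siRNA in a fit of 3 groups. Both siRNAs share the SCR libraries, so their comparisons are not independent. p values were adjusted by Benjamini-Hochberg over all genes tested. Exact permutation tests were 2-sided on mean log2 values. The fit was tested on simulated data.

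The members and lists were chosen with earlier results of these data known. Named are all members, POLR1D, pathway genes that passed in a pooled comparison (at most 8 a line, or the 3 with the smallest p), and for 3 members the 3 genes most alike. Positions are GENCODE 29 (GRCh38), whose gene models overlap other genes for NFE2L2, KEAP1, GCLC, TXNRD1, SRXN1, GPX2, NQO1 and OSGIN1; how reads were shared there is not known. Alternatives covered scaling, pseudocount, filter, trend, robust fit, replicate block, subsets of SCR and each library left out. Of 29 pairs of libraries of a group, all differed by more than sampling noise (mean chi-square per gene 13.0 or more).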

Additional observations from a re-analysis of the deposited data

Results flagged for a closer look

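In 40 groups of values (10 members in the SCR and silenced libraries of each line), 3 values lay far from the others of their group by Dixon's gap test, where chance gives about 1 in 20. siPOLR1D-2 replicate 1 of HT29 was the highest silenced library for GCLC, at a read count of 3423 against 2591 to 2693 in the other 3, and for SRXN1, at 391.8 against 261 to 282. SCR replicate 3 of SW480 had a GCLC read count of 3824, against 2293 to 2672 in the other 5 SCR libraries. Without it, the pooled log2 fold change of GCLC in SW480 was -0.36 (adjusted p = 0.168 from limma). HT29 SCR replicate 1, with the highest values for GCLC, TXNRD1, SRXN1, NQO1 and OSGIN1, did not pass this test.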

How the results depend on the processing

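The number of members called was 0 in HT29 and 3 in SW480 with the siRNAs pooled, and 0 of the other pathway genes in HT29 and 5 in SW480. On average, same-numbered libraries did not deviate together (mean correlation of same-numbered deviations -0.0368 in HT29 and -0.0153 in SW480). Single values in SW480 ran from -0.595 to 0.391. Deviations were taken from group means, which draws such averages towards 0, so they do not settle whether libraries were paired. With a replicate block, 5 members and 14 pathway genes were called in HT29 (735 of all genes against 0), 0 and 0 in SW480 (0 of all genes against 1011), and 2 members instead of 4 for siPOLR1D-3 in SW480. SCR replicates without a same-numbered silenced library (3 and 4 in HT29, 4 to 6 in SW480) add nothing to the contrast of this fit. In HT29 it therefore rests on SCR replicates 1 and 2, which stood apart, and in SW480 on replicates 1 to 3. For TXNRD1 in SW480, the block and SCR replicates 1 to 3 alone both gave a log2 fold change of -0.81. The SW480 members called were 1 with no filter on low values (666 genes in all) and 1 with no mean-variance trend, and 0 against SCR replicates 4 to 6. The SW480 pathway genes called were 0 against SCR replicates 1 to 3. For siPOLR1D-2 in SW480, instead of 0 members, 1 was called after scaling to the same total, 1 with a filter at 50, 1 against SCR replicates 1 to 3 (335 of 15663 genes) and 2 against replicates 4 to 6 (3466 of 15767 genes), where the main comparison called 1225. Fits on the first component of SW480 and on HT29 SCR replicates 3 and 4 were chosen after seeing the data. The positive side gave 0 members and 0 pathway genes (0 of all 15110 genes), the negative side 5 and 8 (1939 of 15553), and the side as a covariate gave 10 pathway genes (1993 of 15019). Of the 5 members on the negative side, TXNRD1, NQO1 and NFE2L2 were lower. KEAP1 and GPX2 were higher there (adjusted p = 0.0369 and 0.00574 from limma). Of all genes on that side, 870 were higher and 1069 lower. With a library left out, SW480 gave 1 to 3 members pooled, 2 to 5 pathway genes, 0 to 1 members for siPOLR1D-2, 1 to 6 for siPOLR1D-3 and 0 to 3 between the siRNAs, and HT29 and the difference between lines gave 0.

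Signs turned for these log2 fold changes, none of which limma called in the main fit or where the sign turned. GPX2 in HT29 became 0.00386 (same total) and 0.011 (same upper quartile) pooled, 0.050 with siPOLR1D-2 (same upper quartile) and 0.0082 with siPOLR1D-3 (same total). HMOX1 in HT29 became -0.00044 pooled and -0.0096 with siPOLR1D-3 under the replicate block. OSGIN1 in HT29 against SCR replicates 3 and 4 became 0.42 pooled, 0.53 with siPOLR1D-2 and 0.31 with siPOLR1D-3. Under the replicate block, pooled OSGIN1 in HT29 was called as lower (adjusted p = 0.0162 from limma). In SW480 on the positive side, KEAP1 became -0.10 and GPX2 -0.017, whereas both were called as higher on the negative side. GCLM in SW480 became 0.028 on the negative side and, against SCR replicates 4 to 6, 0.050 pooled, 0.058 with siPOLR1D-2 and 0.042 with siPOLR1D-3, where SRXN1 and GPX2 with siPOLR1D-2 became 0.12 and -0.027. With a library left out, HMOX1 in HT29 with siPOLR1D-2 ranged from -0.10 to 0.75, and in SW480 with siPOLR1D-2 SRXN1 ranged from -0.10 to 0.012 and GPX2 from -0.16 to 0.47. The causes were not tested. Scaling to the same upper quartile moved the median of all genes to 0.11 in SW480 pooled and to 0.18 with siPOLR1D-3, where it left GCLC with an adjusted p of 0.0538.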
